A study of Mus musculus with 2 samples.

Results

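The cytosolic ribosomal protein genes code for the protein parts of the ribosome that translates nuclear messages. They were taken as every gene row whose symbol starts with Rpl or Rps and a digit, together with Rplp0, Rplp1, Rplp2 and Rpsa, leaving out pseudogene symbols holding -ps and the Rps6k kinases. This rule found 87 of the 27998 gene rows: 53 with large-subunit names, 33 with small-subunit names, and Rps19bp1, a binding partner of Rps19 that is no ribosomal protein. Measured were single-cell RNA profiles, as unique molecular identifier (UMI) counts per gene and cell, of mouse hindlimb muscle cells that carried yellow fluorescent protein (YFP) and lacked CD11b, a surface protein of myeloid cells. Both groups were Fsp1-Cre:R26R-EYFP mice, in which Cre is driven by the Fsp1 (S100a4) promoter, so that cells that once used it, and their progeny, stay YFP-positive. The day 0 library came from mice with no surgery, and the day 28 library from mice 28 days after hindlimb ischemia surgery. Age, sex and the number of animals behind each library were not given in the sources used here. Such a mark records past promoter activity and is not specific to 1 cell type.

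Each group had 1 library, so no difference below has a replicate check and no test between the groups was possible. Intervals are exact at 95% and cover counting error only. The day 0 library held 2668 barcodes and 19574562 UMIs (median 4844 per barcode), and the day 28 library 2653 barcodes and 38785525 UMIs (median 12265). A total of 13 barcodes occurred in both. After filtering, 2610 and 2580 cells fell into 21 clusters, named "X-like" from marker genes, and 8 named classes had at least 50 cells in each library. The ribosomal protein genes were kept out of the genes used for clustering. Nearly all classes were of blood cells: fibroblast-like cells numbered 12 and 4, and no cluster took a muscle fibre, satellite cell or endothelial name. In UMIs scaled to a library total of 1e6 (CPM), the skeletal muscle fibre markers summed to 39.4 in the day 0 and 13.7 in the day 28 library, and the satellite cell genes Myf5 and Myod1 had 0 UMIs in both libraries. S100a4 stood at 229 and 232 CPM, and Itgam, the gene of CD11b, at 6.91 and 10.0 CPM.

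A ribosome has a small subunit, which reads the message, and a large subunit, which joins amino acids, and in general each protein is present in a single copy, the stalk proteins Rplp1 and Rplp2 excepted. The genes are among the most highly transcribed of any cell, and their messages typically begin with a run of pyrimidines, the terminal oligopyrimidine tract, through which mTORC1 signalling sets their translation. In blood formation they are known for Diamond-Blackfan anaemia, in which loss of 1 copy of one of several such genes impairs red cell production. UMIs are counted at the end of a message, so levels of different genes are set side by side here without division by length.

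Promoter sequences from the RefSeq table (build GRCm38.p6) were matched for 66 of the 87 genes, each with 250 bases before and 50 bases after the start. The 30 bases around the first listed start are shown for members on which the results below turn: 4 whose share of ribosomal UMIs differed strongly between libraries (Rpl35, Rps27, Rps12, Rpl28), 2 that differed between classes (Rpl31, Rpl10), and the copies of Rps27. Rpl29, described below, had no entry in the table. They lie at chr2:39005117-39005146 (minus strand) for Rpl35, chr10:23787195-23787224 (minus) for Rps12, chr7:4792950-4792979 (plus) for Rpl28, chr1:39367836-39367865 (plus) for Rpl31 and chrX:74270801-74270830 (plus) for Rpl10. For the Rps27 group they lie at chr3:90213634-90213663 (minus) for Rps27, chr9:114982725-114982754 (minus) for Rps27rt and chr9:66946071-66946100 (plus) for Rps27l. Each is written 5′ to 3′ with 15 bases before the start and 15 from it on, and capitals mark the longest unbroken run of C and T of at least 5 bases.
Rpl35: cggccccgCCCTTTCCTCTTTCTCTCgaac
Rps12: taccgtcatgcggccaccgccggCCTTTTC
Rpl28: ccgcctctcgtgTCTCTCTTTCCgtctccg
Rpl31: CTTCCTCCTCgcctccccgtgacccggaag
Rpl10: gttgttacagtggaagataggccgcctata
Rps27: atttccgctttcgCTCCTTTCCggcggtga
Rps27rt: agaacttaTCCCTTgctttccggcggtgac
Rps27l: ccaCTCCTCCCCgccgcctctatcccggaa

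Within 25 bases on either side of the start, the longest run spans 18 bases in Rpl35, 13 in Rpl31, 11 in Rps12 and in Rpl28, 9 in Rps27 and in Rps27l, 7 in Rps27rt and 4 in Rpl10. Those of Rps12, Rpl31, Rps27rt and Rpl10 lie partly or wholly outside the 30 bases shown. In the same 50 bases, a run of at least 7 pyrimidines was present in 54.5% of the 66 member promoters. It was present in 29.2% of all 27025 promoters, taking the first listed start of each symbol. The median longest run was 7 against 5 bases. Over the whole 300 bases and both strands, CCGGAAG, the core of an ETS-type motif, was found in 37.9% of member promoters and 9.12% of all promoters. GGGCGG, the GC-box core, was found in 60.6% and 35.9%. CTTTC was found in 81.8% and 57.1%, and CTTCC, which overlaps the reverse complement of CCGGAAG, in 92.4% and 71.1%. TATAAA was found in 9.09% of member and 14.2% of all promoters. These are matches of letters in a window and show no binding.

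Of all UMIs, 35.4% belonged to ribosomal protein genes at day 0, against 37.7% at day 28 (ratio 1.06). The mean of the per-cell shares pointed the other way, with a ratio of 0.981, and the median cell stood at 37.3% and 37.2%. The makeup of the 2 libraries differed: T or NK lymphocyte-like cells, the class richest in these messages, were 1061 of the day 0 cells and 100 of the day 28 cells. Among the 8 classes, the median ratio of the share was 1.16, and T or NK lymphocyte-like cells, near 1, were the class whose direction changed under the alternatives run. In the UMIs of the 8 classes alone the share was 35.8% and 38.0%. With day 28 class levels and the day 0 mix of these UMIs the share would be 39.6%, and with day 0 class levels and the day 28 mix 32.7%. With each class given equal weight it was 33.3% and 37.9%.

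The largest ratio among the 8 classes was in erythroid-like cells, precursors of red cells, in which the share was 32.0% at day 0 (95% interval 31.9% to 32.1%) against 40.6% at day 28 (40.5% to 40.6%), with a ratio of 1.27 (1.26 to 1.27). Haemoglobin UMIs in that class were 11.2% and 3.17%, and with haemoglobin, immunoglobulin and mitochondrial UMIs left out the ratio was 1.17. Their summed cell cycle genes stood at 9130 and 6634 CPM. The part of either in the result was not tested. Median totals of the class were 9738 and 18310 UMIs per cell. In cells with 10000 to 20000 UMIs the share was 32.8% at day 0 (35 cells) and 39.4% at day 28 (86 cells). In cells of 20000 UMIs or more it was 38.1% (23 cells) and 41.7% (84 cells), nearer each other than in the whole class. Cluster 11 of the class stood at 29.1% and 38.0%, and cluster 16 (18 and 64 cells) at 40.1% and 44.1%. The part of depth and of clusters in the ratio was not tested. Macrophage or monocyte-like cells stood at 25.8% and 31.5%, a ratio of 1.22 (1.22 to 1.23). Plasmacytoid dendritic cell-like cells, producers of type I interferon, stood at 27.2% and 32.0%, a ratio of 1.18 (1.17 to 1.18). Stem or early progenitor-like cells stood at 38.1% and 44.6%, a ratio of 1.17 (1.17 to 1.18). Their cluster was led by Pf4, a megakaryocyte gene, ahead of Cd34 and Gata2.

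Granulocyte or monocyte precursor-like cells, marked by Elane and Mpo, stood at 34.4% and 39.2%, a ratio of 1.141 (1.138 to 1.143). Conventional dendritic cell-like cells (104 and 245), in a cluster led by Cd7 and Ms4a6c with 2 of its own markers among its top 10 genes, stood at 28.4% and 31.3%, a ratio of 1.101 (1.096 to 1.106). Without doublet removal the name went to a cluster of 35 and 84 cells, and a cluster of 80 and 163 cells led by Cd7 and Cox6a2 took the plasmacytoid name. B lymphocyte-like cells stood at 33.8% and 36.8%, a ratio of 1.089 (1.086 to 1.092). The intervals over the 8 classes each rest on 171716 or more ribosomal UMIs per library, and they leave out differences between animals and library preparations.

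T or NK lymphocyte-like cells stood at 46.5% and 46.9%, a ratio of 1.008 (1.004 to 1.012). The ratio was 0.992 with member genes allowed among the clustering genes and 0.990 with at most 5% mitochondrial UMIs per cell, so no direction is read for the whole class. Different clusters held most of the class: cluster 1, led by Cd8b1, held 565 day 0 cells but 17 of day 28, and cluster 8, with Ccl5 and Klrd1 in front, 200 and 62. The share in cluster 1 was 51.8% and 58.5%, and in cluster 8 46.8% and 50.1%. Cluster 10 (223 and 7 cells), which carried Cd79a and class II genes of antigen-presenting cells beside its Cd3 genes, stood at 40.2% and 44.3%. Cluster 15, led by S100a4, Icos and Tnfrsf4, stood at 36.9% and 29.4%, a ratio of 0.794 on 73 and 14 cells. The T or NK lymphocyte-like ratio was 1.07 without that cluster, which was left out after the data had been seen. Summed cell cycle genes of the class stood at 1235 and 3623 CPM. Their part in the result was not tested.

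All 10 clusters with at least 50 cells in each library had the higher share at day 28. B lymphocyte-like cells were also carried by different clusters, and 2 of them, of 81 and 60 cells, held day 0 cells only. In cluster 9, led by Vpreb3, the share was 26.3% and 31.2%, and in cluster 12, led by Vpreb1 and Igll1 of early B cells, 33.3% and 38.8%. Summed cell cycle genes of the B lymphocyte-like class stood at 6211 and 9613 CPM.

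**Figure D1:**
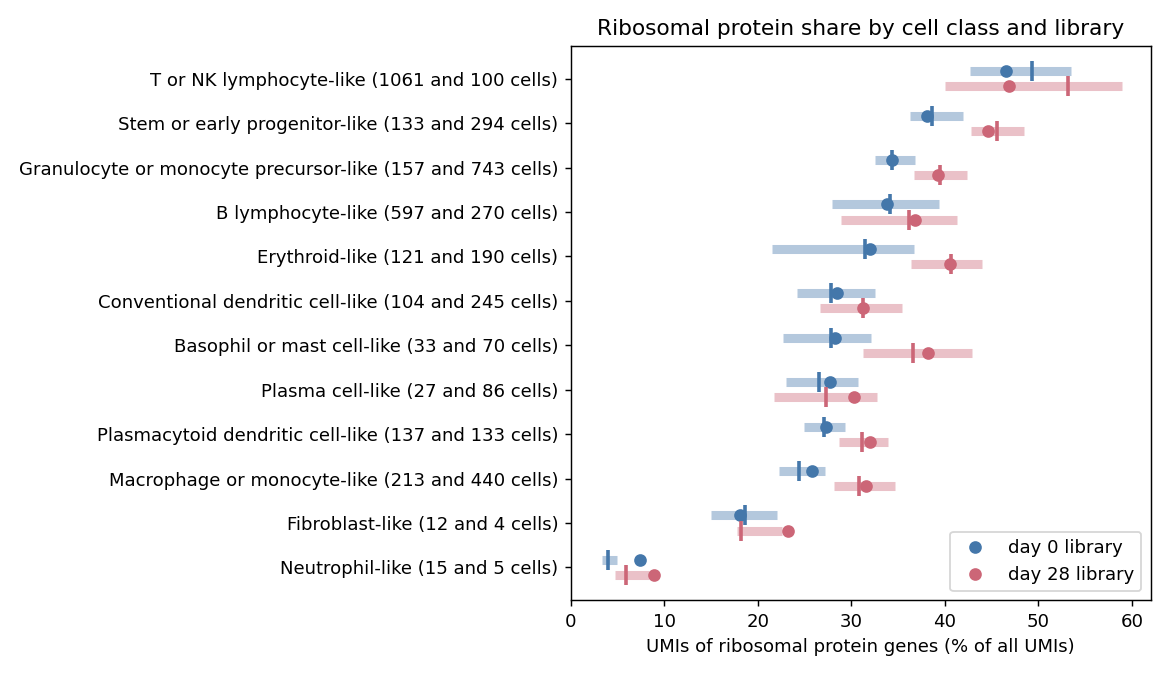
Share of ribosomal protein UMIs in percent of all UMIs (horizontal axis) by cell class, with the day 0 library in blue and the day 28 library in red; dots are the share of the summed UMIs, ticks the median cell and pale bars the quartiles over cells. T or NK lymphocyte-like cells are highest in both libraries, at 46.5% and 46.9%, and the neutrophil-like cells, 15 and 5 in number, are lowest, at 7.36% and 8.83%.

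The plot of shares by class also shows the order of the classes. At day 0 the shares ran from 25.8% in macrophage or monocyte-like to 46.5% in T or NK lymphocyte-like cells, with a median of 32.9%. At day 28 they ran from 31.3% in conventional dendritic cell-like cells to 46.9% in T or NK lymphocyte-like cells, with a median of 38.0%. Stem or early progenitor-like cells were second in both. The quartile ranges over cells overlapped between all neighbours in the day 28 order, and at day 0 between all neighbours except the top pair. There T or NK lymphocyte-like cells had quartiles of 42.7% and 53.5% and stem or early progenitor-like cells 36.3% and 41.9%. Classes further apart in the order could be separate: at day 0 granulocyte or monocyte precursor-like cells had quartiles of 32.5% and 36.8% and macrophage or monocyte-like cells 22.2% and 27.2%. B lymphocyte-like cells had 28.0% and 39.4% and erythroid-like cells 21.5% and 36.7%.

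Classes under 50 cells in a library are given as values. Basophil or mast cell-like cells (33 and 70) stood at 28.2% and 38.2%, plasma cell-like cells (27 and 86) at 27.7% and 30.3%, and fibroblast-like cells at 18.1% and 23.2%. Neutrophil-like cells were far below every other class, with a median of 172 and 351 ribosomal UMIs per cell, while their median totals, 4107 and 4510 UMIs, were near the 3818 and 5030 of T or NK lymphocyte-like cells.

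Depth differed between the libraries, and fewer molecules captured per cell cannot be told apart from fewer present. In macrophage or monocyte-like cells with 10000 to 20000 UMIs the share was 26.4% at day 0 (95 cells) and 31.6% at day 28 (249 cells). In stem or early progenitor-like cells of that depth it was 36.6% (39 cells) and 44.7% (110 cells). In plasmacytoid dendritic cell-like cells under 5000 UMIs it was 26.9% (97 cells) and 31.7% (76 cells). B lymphocyte-like cells under 5000 UMIs went the other way, at 33.8% (364 cells) and 29.7% (38 cells). With 5000 to 10000 UMIs, B lymphocyte-like cells stood at 31.7% (174 cells) and 34.6% (139 cells). With 10000 to 20000 UMIs they stood at 36.1% (46 cells) and 38.5% (75 cells). Mitochondrial UMIs ranged over classes from 1.94% to 3.66% at day 0 and from 2.13% to 3.53% at day 28. Malat1, a nuclear RNA, stood at 9582 and 4947 CPM over all cells, and by class it was lower at day 28 in some and higher in others. It was 1.31% and 0.512% of UMIs in B lymphocyte-like, 1.57% and 0.956% in T or NK lymphocyte-like and 1.54% and 1.93% in plasmacytoid dendritic cell-like cells. Free haemoglobin RNA was low: outside the erythroid-like class, haemoglobin UMIs were at most 0.0557% in the other 7 classes of 50 cells. The part of these in the share was not tested.

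Single members were broadly abundant. Of the 87, 84 reached a mean of 50 CPM over the 2 libraries, 79 exceeded 1000 CPM, and 82 were found in the majority of the cells of each library. Rpl41, which encodes a very short basic peptide, was first in both, with 8173 (day 0) and 8915 CPM (day 28). Also among the highest by mean level were Rps19 (8065 and 8064 CPM), the gene most often mutated in Diamond-Blackfan anaemia, Rpl32 (7522 and 8553 CPM) and Rpl13 (8136 and 7814 CPM). Rps18 (7054 and 7039 CPM), Rps23 (6653 and 7338 CPM) and Rplp0 (6985 and 6799 CPM) were in the same range. The 8 highest genes gave 17.5% and 16.7% of the ribosomal sum, so no single gene carried it. Large-subunit UMIs were 1.242 and 1.2549 times small-subunit UMIs over all cells, and by class the ratio ran from 1.19 to 1.34 at day 0 and from 1.21 to 1.305 at day 28, lowest in T or NK lymphocyte-like and highest in plasmacytoid dendritic cell-like cells in both.

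Of the 87 symbols, 10 are like-named copies or partners of other members. Among them Rpl22l1, the copy of Rpl22, stood at 1425 and 1395 CPM, Rpl36al, the copy of the X-linked Rpl36a, at 1094 and 1364 CPM, and Rps27rt at 688 and 638 CPM. Rpl6l, annotated as a processed pseudogene, stood at 532 and 560 CPM, and it shares a stretch of 354 bases with Rpl6, so its reads may not be its own. Rps27l, a p53-inducible copy of Rps27, stood at 456 and 687 CPM. Rpl7l1 stood at 60.7 and 50.6 CPM, and Rps19bp1 at 51.1 and 56.8 CPM.

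The copies known from muscle and testis were nearly silent. Rpl3l, which replaces Rpl3 in striated muscle, had 37 and 36 UMIs in all. Rpl39l had 3 and 5 UMIs, and Rpl10l, which stands in for the X-linked Rpl10 in male germ cells, had 0 and 1. The 4 X-linked members had ratios near 1: Rpl10 stood at 5221 and 5543 CPM, Rpl39 at 5395 and 5784, Rps4x at 5877 and 6289 and Rpl36a at 2922 and 3064.

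Fau, a ribosomal protein made as a fusion with a ubiquitin-like domain, lies outside the naming rule. It stood at 5394 and 4846 CPM over all cells, with 0.758 as the ratio in B lymphocyte-like and 0.866 in T or NK lymphocyte-like cells. In the other 6 classes its ratio lay between 1.08 and 1.21.

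Counted in CPM, a member was called higher or lower where the day 28 over day 0 ratio passed 1.5-fold, at a mean of at least 50 CPM. Over all cells 4 of 84 members were higher (Rpl28, Rpl29, Rps12 and Rps27l), beside 4.22% of all 2344 genes at that level, and 2 were lower (Rpl35 and Rps27), beside 9.13%. Erythroid-like cells had 12 of 83 members higher (5.57% of all genes) and 1 lower (9.23%). Macrophage or monocyte-like cells had 8 of 83 higher (1.56%) and 1 lower (5.98%), plasmacytoid dendritic cell-like cells 8 of 82 higher (4.67%) and 1 lower (12.2%), and stem or early progenitor-like cells 6 of 84 higher (1.4%) and 2 lower (15%). B lymphocyte-like cells had 6 of 84 higher (10.3%) and 2 lower (12.8%), granulocyte or monocyte precursor-like cells 4 of 84 higher (0.997%) and 2 lower (6.15%), T or NK lymphocyte-like cells 4 of 82 higher (12%) and 2 lower (11.4%), and conventional dendritic cell-like cells 2 of 82 higher (2.29%) and 1 lower (5.89%).

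The median log2 ratio of the members was 0.34 in erythroid-like cells, beside 0.00067 over all genes tested, and 0.30 beside -0.12 in macrophage or monocyte-like cells. It was 0.22 beside -0.18 in stem or early progenitor-like, 0.25 beside -0.12 in plasmacytoid dendritic cell-like and 0.19 beside -0.12 in granulocyte or monocyte precursor-like cells. In conventional dendritic cell-like cells it was 0.15 beside -0.05, in B lymphocyte-like cells 0.15 beside 0.05 and in T or NK lymphocyte-like cells 0.03 beside 0.02. In each class the members' median was above that of all genes tested, and most members were within 1.5-fold. Calls of higher were more frequent among members than among all genes in erythroid-like, macrophage or monocyte-like and plasmacytoid dendritic cell-like cells. They were also more frequent in stem or early progenitor-like and granulocyte or monocyte precursor-like cells. In conventional dendritic cell-like cells the shares were near each other, and in the lymphocyte-like classes members were called less often.

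To compare the members with each other, apart from their sum, each member's UMIs were divided by all ribosomal UMIs of the same class. Over the 8 classes, 17 of 664 pairs of a class and a member were then past 1.5-fold higher and 13 lower. In B lymphocyte-like cells 4 of 84 were higher, beside 6.79% of all genes scaled the same way, and 2 lower, beside 16.5%. In T or NK lymphocyte-like cells 4 of 82 were higher (11.7%) and 2 lower (11.6%). Erythroid-like cells had 2 of 83 higher (1.36%) and 1 lower (27.6%), plasmacytoid dendritic cell-like cells 2 of 82 (2.24%) and 1 (27.3%), and granulocyte or monocyte precursor-like cells 2 of 84 (0.607%) and 2 (17%). Conventional dendritic cell-like cells had 1 of 82 higher (1.11%) and 1 lower (11.3%), macrophage or monocyte-like cells 1 of 83 (0.696%) and 2 (25.6%), and stem or early progenitor-like cells 1 of 84 (0.681%) and 2 (33%). Over all cells 2 of 84 were higher (2.69%) and 2 lower (11.5%). Dividing by the ribosomal sum, whose ratio was above 1 in every class, lowers the ratios of other genes, while the members' own shares must balance. The member counts and the shares of all genes scaled this way are therefore not like for like. The members past 1.5-fold were few, and the same names recurred across classes: Rpl29 was among the higher and Rpl35 among the lower in all 8. Rpl29 was the only higher call in conventional dendritic cell-like, macrophage or monocyte-like and stem or early progenitor-like cells. Summed with a row that shares its sequence, described below, its CPM ratio by class lay between 1.31 and 1.49. Whether the libraries had the same read length, or the same annotation behind their counts, is not given in the sources used here. The part of either in the ratios of single members, and of rows that share their sequence, was not tested.

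Rpl35, a protein at the exit of the large subunit's peptide tunnel (chromosome 2, 39001580 to 39005624, mm10), was lower at day 28 in all 8 classes. Over all cells its level was 4047 CPM without and 1372 CPM after surgery, a ratio of 0.339 (0.335 to 0.343). The class levels ran from 2844 to 5109 CPM at day 0 and from 1041 to 1672 CPM at day 28, so the class values of the 2 libraries did not overlap. Within the ribosomal sum its ratio lay between 0.286 and 0.331 in every class, and these classes share their library. In the pair of clusters of early B cells it was 0.299 and 0.294, and in the T or NK cluster 8 it was 0.319. Of the 1222 genes measured in every class, 6 were past 2-fold lower in all 8, and Rpl35 was the 1 member among them. The others were Eno1, Gm8186, Gm10020, Gm10076 and Gm10709. Of these, Gm10020, Gm10076 and Gm10709 share stretches of 150 to 410 bases with other members. Of the 17 genes outside the members that passed 1.5-fold in every class, in either direction, 10 shared at least 25 bases with a member.

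Gm2000, a gene row that shares a stretch of 290 bases with Rpl35, stood at 321 and 162 CPM. The 2 rows summed to 4367 and 1534 CPM, a ratio of 0.351, and in the classes the sum's ratio lay between 0.310 and 0.404. The lower Rpl35 count was not matched by a gain in that row. Reads counted in neither row cannot be seen in the sum, and their part was not tested.

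Rpl29, a small basic protein of the large subunit (chromosome 9, 106429454 to 106431568), was the counterpart on the higher side. Its levels were 1347 and 2992 CPM, a ratio of 2.22 (2.19 to 2.25). The class levels ran from 972 to 1523 CPM and from 2174 to 3483 CPM, again without overlap. Within the ribosomal sum the ratio lay between 1.85 and 2.15. It was also the 1 member among 4 genes past 2-fold higher in every class, the others being Gm26917, Gm42418 and Gm6133.

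A row of similar sequence had the opposite direction. Gm10709, which shares a stretch of 204 bases with Rpl29, had 793 and 11.3 CPM, a ratio of 0.0142. The 2 rows summed to 2140 and 3003 CPM, a ratio of 1.40 (1.39 to 1.42), and in the classes the sum's ratio lay between 1.31 and 1.49. Read together, the 2 rows are thus below the 1.5-fold level that Rpl29 alone passed, and reads from the shared stretch cannot be told apart.

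Rps12, a small-subunit protein (chromosome 10, 23785183 to 23787275), stood at 3697 and 6524 CPM, a ratio of 1.76 (1.75 to 1.78). Within the sum its ratio was higher in all 8 classes, from 1.33 in erythroid-like to 1.68 in T or NK lymphocyte-like cells. Class levels overlapped between libraries, from 1973 to 4914 CPM at day 0 and from 3301 to 8253 CPM at day 28. Its pseudogene row Rps12-ps3, which shares 494 bases, had the same direction, at 695 and 1419 CPM, and the sum's ratio was 1.81. Rpl28, of the large subunit, stood at 3218 and 5129 CPM, with ratios within the sum from 1.21 in erythroid-like to 1.57 in B lymphocyte-like cells.

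Rps27, a zinc-binding protein of the small subunit (chromosome 3, 90212522 to 90213651), stood at 7876 and 4053 CPM over all cells, a ratio of 0.515 (0.511 to 0.518). T or NK lymphocyte-like cells, far more numerous at day 0, had 14714 CPM there and 9272 CPM at day 28. In CPM the class ratios ran from 0.536 in B lymphocyte-like to 1.01 in erythroid-like cells. Within the ribosomal sum it was lower in all 8 classes, from 0.492 to 0.832. The B lymphocyte-like value was less extreme in single clusters, at 0.761 in cluster 9 and 0.811 in cluster 12, while the T or NK cluster 8 gave 0.632 and its class 0.625.

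Rps27rt is a copy that shares 341 bases with Rps27, so reads of that stretch cannot be told apart. Its ratio within the sum was 1.54 in erythroid-like, 1.52 in plasmacytoid dendritic cell-like and 1.502 in granulocyte or monocyte precursor-like cells, and 0.936 in B lymphocyte-like cells. Rps27 and Rps27rt together gave a ratio of 0.548 over all cells and class ratios from 0.573 to 1.08. Rps27l shares at most 11 bases in a row with Rps27, far fewer than Rps27rt does.

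Rps29, a small-subunit zinc-finger protein, was lower in all 8 classes in CPM, as was Rpl35. It stood at 7427 and 5549 CPM over all cells, with class levels from 5515 to 10793 CPM at day 0 and from 4845 to 7484 CPM at day 28. Its ratio within the sum lay between 0.687 and 0.766. Rpl7l1, at 103 and 59.7 CPM in granulocyte or monocyte precursor-like cells, had ratios within the sum of 0.508 there, 0.579 in macrophage or monocyte-like and 0.5005 in stem or early progenitor-like cells. It is a low gene, and the last of these rests on 91 and 150 UMIs.

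**Figure D2:**
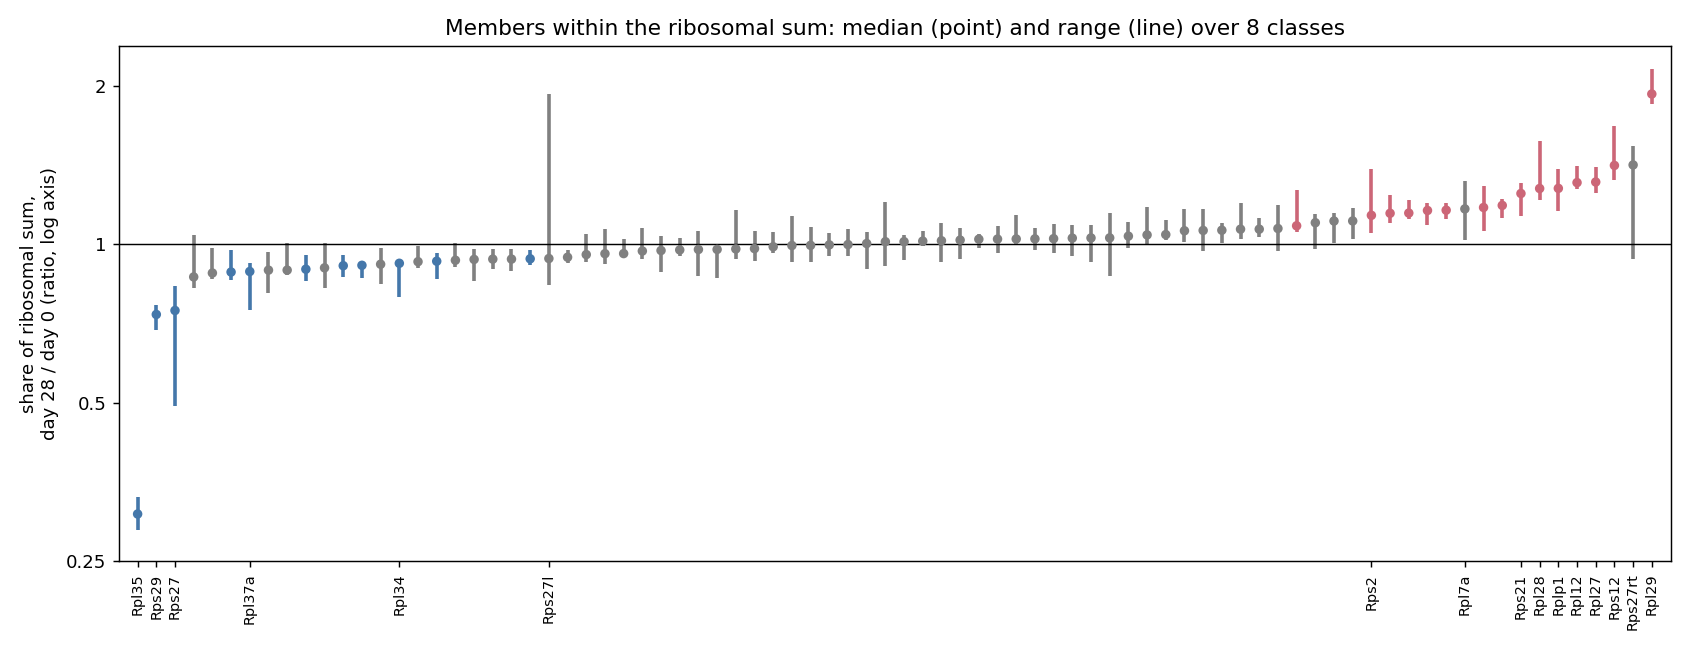
Ratio, day 28 over day 0, of each member's share of the ribosomal sum (vertical log axis), for the 82 members that reached the 50 CPM level in all 8 classes; points are medians and lines the range over classes, blue where the interval lay below 1 in all 8, red where it lay above. Rpl35 stands alone at 0.286 to 0.331 and Rpl29 at 1.85 to 2.15, while Rps27l and Rps27rt have the widest ranges across 1. Names are given for members whose range reaches below 0.8 or above 1.3.

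As the plot of ratios within the sum shows, 15 of 82 members were higher and 11 lower in all 8 classes beyond counting error, beside 2.29% and 7.77% of the 1222 genes at that level, scaled the same way. Counting intervals narrow with more UMIs, and 79 members exceed 1000 CPM while those genes start at 50 CPM. Dividing by the ribosomal sum, whose ratio was above 1 in every class, also lowers the ratios of other genes. These counts and shares are therefore not like for like. Among the higher ones were the large-subunit genes Rpl12, Rpl23, Rpl23a, Rpl27, Rpl27a, Rpl28, Rpl29, Rpl30 and Rplp1 and the small-subunit genes Rps2, Rps10, Rps12, Rps20 and Rps21. Among the lower ones were Rpl3, Rpl13, Rpl21, Rpl34, Rpl35, Rpl37a, Rps14, Rps18, Rps27 and Rps29. Except for those described above, their medians were modest, such as 1.31 for Rpl27 and for Rpl12, a protein at the base of the stalk, and 0.912 for Rpl13. Shares of a single sum must balance, so members higher within it imply others lower.

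Members of a common function had unlike ratios in some cases. The stalk proteins Rplp0, Rplp1 and Rplp2 recruit translation factors to the large subunit. Rplp1 stood at 6026 and 7709 CPM, with ratios within the sum from 1.15 to 1.39, while Rplp0 had ratios from 0.827 to 1.04 and Rplp2 from 0.996 to 1.14. Rpl5 and Rpl11, which carry the 5S RNA into the ribosome and bind Mdm2 outside it, stood at 1579 and 1808 CPM and at 4185 and 4473 CPM. Rps27a, made as a fusion with ubiquitin, had ratios within the sum between 0.992 and 1.06.

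The 18 members linked to Diamond-Blackfan anaemia had 2 past 1.5-fold lower over all cells, Rpl35 and Rps27, and none higher, beside 9.13% and 4.22% of all genes, with a median log2 ratio of 0.10 beside 0.03 for all genes tested. Its highest ratio was that of Rpl27 (1.37). In erythroid-like cells, the lineage the disease affects, the list's median log2 ratio was 0.39, beside 0.34 for all members.

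Differences between cell classes were read as each member's share of the ribosomal sum, in each library separately. Of 84 members, 5 had over 1.5-fold between the highest and the median class in both libraries, beside 64% of the 6465 genes with at least 20 CPM in their highest class in both libraries. The median fold was 1.14 at day 0 and 1.12 at day 28, and 57 of 84 members had the same highest class in both libraries, beside 63.6% of those genes. Genes confined to 1 class can pass the 20 CPM level through that class, whereas 79 members exceed 1000 CPM over all cells. The member counts and the shares of all genes are thus not like for like.

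Rpl31, a large-subunit protein near the tunnel exit (chromosome 1, 39367842 to 39371911), had the strongest class pattern. In plasmacytoid dendritic cell-like cells it was 2.76% (2.68% to 2.84%) of ribosomal UMIs at day 0 and 2.71% (2.64% to 2.77%) at day 28, or 7515 and 8665 CPM. The median class stood at 0.923% and 1.003%, folds of 2.99 and 2.70. The next highest value in either library was 1.12%, in conventional dendritic cell-like cells at day 28, and the lowest were T or NK lymphocyte-like cells, at 0.726% and 0.769%.

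Rpl10, which is needed for the subunits to join, was also highest in plasmacytoid dendritic cell-like cells, at 2.52% and 2.18% of the sum, folds of 1.64 and 1.60 over the median class. In CPM it was nearly flat between the libraries, with class ratios from 0.991 to 1.13. Rpl36al was likewise highest there, with 0.492% and 0.501% in plasmacytoid dendritic cell-like cells, folds of 1.54 and 1.51. Both thus had the highest class in common with Rpl31 in both libraries.

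In erythroid-like cells, Rps2, at the entry of the message channel, and Rplp1 were highest. Rps2 was 1.87% and 2.22% of the sum, folds of 1.53 and 1.47, and lowest in plasmacytoid dendritic cell-like cells, at 0.836% and 0.904%. Rplp1 was 2.30% and 2.65%, folds of 1.54 and 1.36. Rpl41 was highest there as well, at 3.11% and 2.86%.

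Rps27 was 3.16% of the sum in T or NK lymphocyte-like, 2.82% in B lymphocyte-like and 2.70% in plasmacytoid dendritic cell-like cells at day 0, and 1.14% to 1.94% in the other 5 classes. At day 28 plasmacytoid dendritic cell-like cells were highest, at 2.14%, with T or NK lymphocyte-like cells at 1.98%. Rps27rt had the same change of order, highest in T or NK lymphocyte-like cells at day 0 (0.285%) and in plasmacytoid dendritic cell-like cells at day 28 (0.353%).

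Rps27l ran against its namesake. It was lowest in T or NK lymphocyte-like cells in both libraries, at 144 and 281 CPM, against 786 and 872 CPM in erythroid-like cells, which were highest. Between the libraries its ratio within the sum was 1.93 (1.63 to 2.28) in T or NK lymphocyte-like cells and 1.73 in B lymphocyte-like cells, and from 0.837 to 0.993 in the other 6 classes. In T or NK cluster 8 alone it was 1.64 (1.247 to 2.158). In B clusters 9 and 12 it was 0.873 and 0.901, so the B lymphocyte-like value was not seen inside the clusters that both libraries filled.

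**Figure D3:**
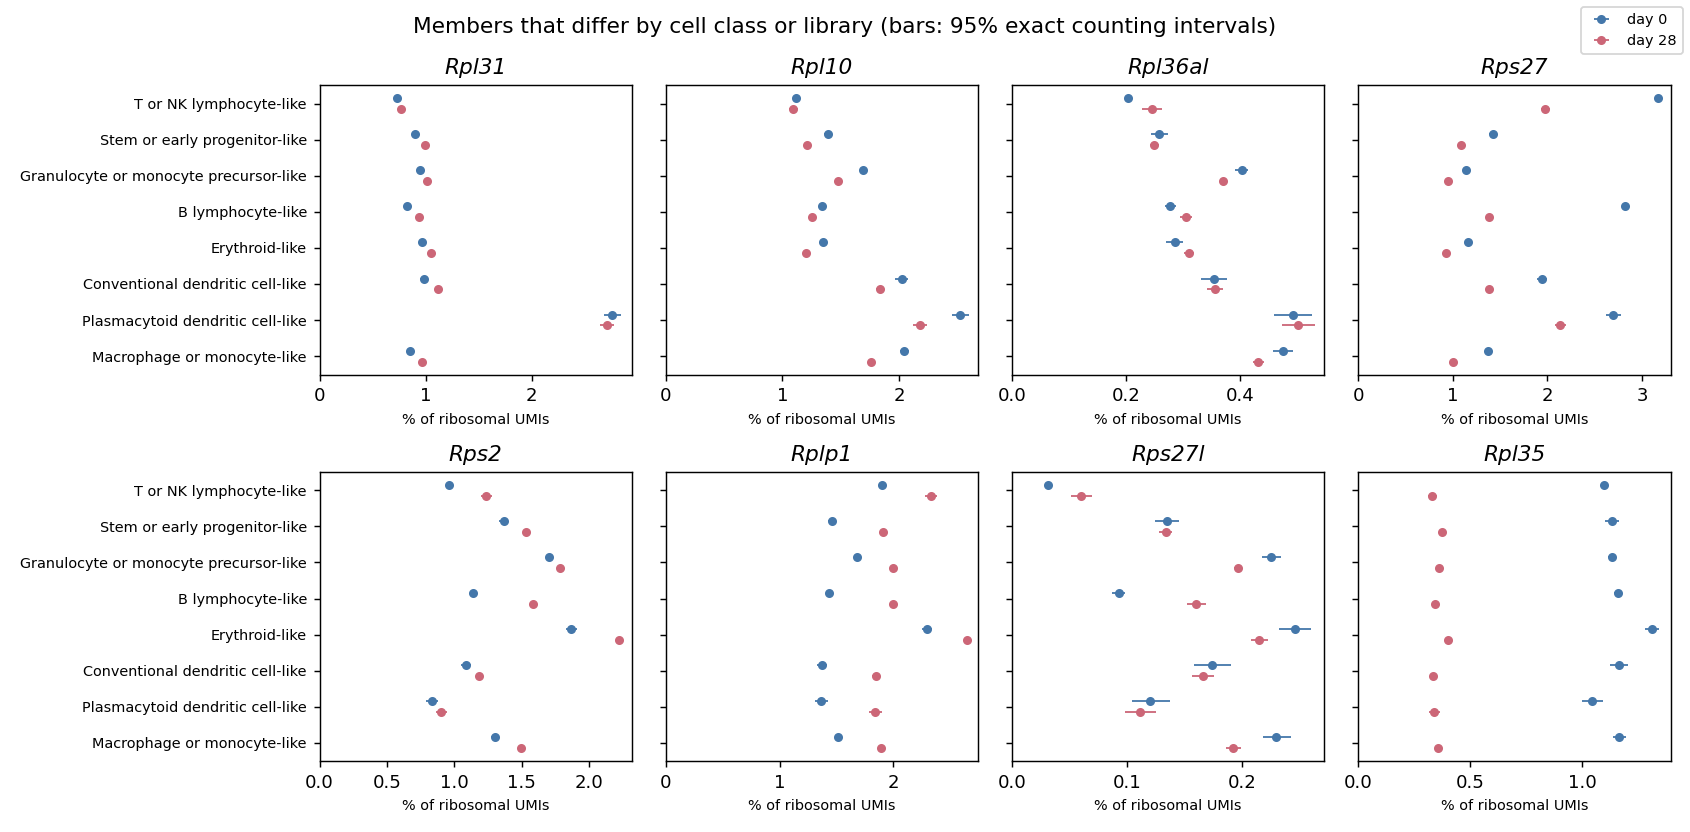
Share of ribosomal UMIs in percent (horizontal axes, each from 0) taken by 8 members in 8 classes, day 0 in blue and day 28 in red, with exact 95% counting intervals as bars. Rpl31 stands out in plasmacytoid dendritic cell-like cells, at 2.76% and 2.71%, Rps27 is highest in T or NK lymphocyte-like cells at day 0, at 3.16%, and Rpl35 is lower at day 28 in every class.

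Genes that work beside the ribosome were read from lists, by their summed CPM. Elongation factors and other partners with messages of the same type (17 genes) summed to 22799 CPM at day 0 and 25718 at day 28, with 0 past 1.5-fold over all cells and a median log2 ratio of 0.15 beside 0.03 for all genes. By class their sum's ratio ran from 1.13 to 1.26. The median log2 ratio of the 17 genes by class ran from 0.005 in conventional dendritic cell-like to 0.18 in B lymphocyte-like cells. A sum is weighted by its most abundant genes, so it does not show that most of the list was higher in each class. Tpt1, a classic message of this type, stood at 3080 and 3888 CPM, with class ratios from 1.34 to 1.84, and Eef1a1, which brings aminoacyl-tRNA to the ribosome, at 6777 and 8114 CPM. Gnb2l1, the scaffold Rack1 on the small subunit, had a ratio of 1.32, Eef1b2 of 1.39, Eef2 of 0.792 and Eif3e of 0.786.

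Initiation factors (24 genes) summed to 6580 and 6536 CPM, with 1 gene past 1.5-fold higher over all cells, Eif4ebp1, the translation repressor that mTORC1 switches off, at 89.1 and 142 CPM. Their sum's ratio by class ran from 0.815 in stem or early progenitor-like to 1.004 in erythroid-like cells. Past 1.5-fold lower were 4 of 21 genes in plasmacytoid dendritic cell-like cells, beside 12.2% of all genes, and 3 of 24 in stem or early progenitor-like cells, beside 15%. Eif3a had a ratio of 1.48, Eif1 of 0.831 and Eif4a2 of 0.811. The median log2 ratio of the list over all cells was 0.02, beside 0.03 for all genes.

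Ribosome biogenesis factors, which build and process the subunits in the nucleolus, had 19 of 40 genes at the level tested, with 2 past 1.5-fold higher, beside 4.22% of all genes, and 0 lower, beside 9.13%. Npm1 stood at 1361 and 2051 CPM and Lyar at 105 and 183 CPM. Ncl, the nucleolar protein nucleolin, had a ratio of 1.29, and Fbl of 0.833 and Nolc1 of 0.845. The list's sum was 1.43 times higher in erythroid-like and 1.33 times in B lymphocyte-like cells, and its ratio was 0.965 in granulocyte or monocyte precursor-like cells, in which 5 of 26 genes were lower, beside 6.15% of all genes. Myc, which drives ribosome production, was low, at 33.1 and 21.3 CPM over all cells and at 108 and 52.9 CPM in stem or early progenitor-like cells.

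The 77 genes of the mitochondrial ribosome, a separate ribosome inside mitochondria, had 48 at the level tested and 0 past 1.5-fold over all cells, with a median log2 ratio of 0.15. Mrps15 had a ratio of 1.40, Mrpl51 of 1.35, Mrps18c of 0.788 and Mrps34 of 0.755. By class the ratio of their sum ran from 0.871 in stem or early progenitor-like to 1.15 in B lymphocyte-like cells. Past 1.5-fold lower were 6 of 42 genes in plasmacytoid dendritic cell-like (12.2% of all genes), 5 of 49 in stem or early progenitor-like (15%) and 3 of 56 in granulocyte or monocyte precursor-like cells (6.15%). Past 1.5-fold higher were 3 of 51 in B lymphocyte-like (10.3%) and 3 of 31 in T or NK lymphocyte-like cells (12%). In 5 of the 8 classes their sum was lower at day 28 while the cytosolic sum was higher. Of the hosts of small nucleolar RNAs, 2 of 8 listed symbols were in the gene table, Snhg6 (ratio 1.70) and Snhg12 (1.27).

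**Figure D4:**
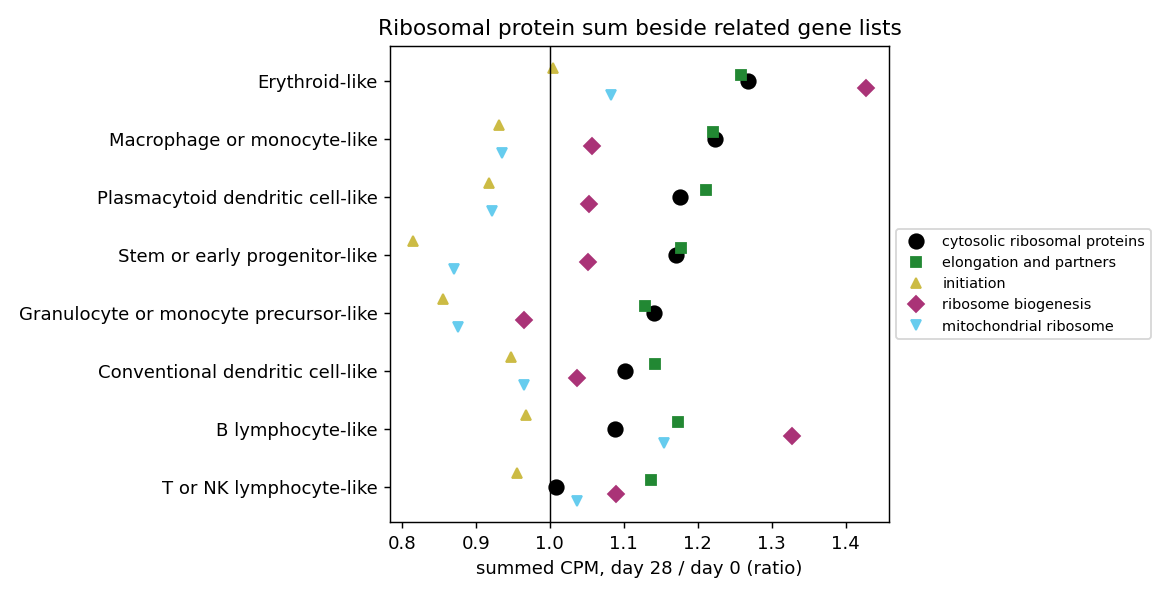
Ratio, day 28 over day 0, of the summed CPM (horizontal axis) of the cytosolic ribosomal protein genes (black dots) and of 4 related lists, by cell class. The elongation list runs from 1.13 to 1.26, the initiation list lies below the ribosomal sum in all 8 classes, and the mitochondrial list lies below it in 6 of them, the exceptions being the lymphocyte-like classes (B 1.15, T or NK 1.04).

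The genes whose CPM followed the summed ribosomal share most closely were ranked by Spearman's rho over 16 points, the 8 classes in each of 2 libraries, which share library, depth and the total by which CPM is divided. Among genes that are no member, the highest were Rps18-ps3 (0.968), Rpl23a-ps3 (0.962), Zfos1 (0.912), Rpl36-ps3 (0.897) and Eef1a1 (0.871). The pseudogene rows share from 88 to 352 bases with their parent genes, so their counts may in part be those of members. The median rho was 0.882 over 83 members, which are part of the sum, and -0.235 over the other genes. The members that followed the sum least were Rpl10 (-0.359), Rpl7l1 (-0.159) and Rpl36al (-0.144), 2 of which are also among those highest in plasmacytoid dendritic cell-like cells.

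Rows named as ribosomal pseudogenes with -ps held 0.331% of UMIs at day 0 and 0.3997% at day 28. Several unnamed rows that share sequence with a member differed strongly between the libraries. Gm10076, which shares 150 bases with Rpl41, stood at 759 and 85.2 CPM, and Gm10020, which shares 410 bases with Rpl15, at 164 and 23.3 CPM. Gm9493, which shares 277 bases with Rps7, stood at 381 and 738 CPM. Rpl10-ps3, which shares 740 bases with Rpl10, stood at 439 and 268 CPM. With all these rows added to the members, the ratio of the ribosomal share over all cells was 1.06, and each class ratio kept its direction.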

How the data were processed

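The authors deposited unnormalised UMI counts for each gene in each barcode, per the file headers; all were checked to be whole numbers. Per the submitters' processing notes they were made with Cell Ranger 2.1.1 and STAR on mm10. The lowest barcode totals were 3001 and 4175 UMIs.

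Barcodes under 500 genes or over 10% mitochondrial UMIs were removed (2 and 17). Scrublet (scanpy 1.11.5) marked 0.150% and 0.829% by its automatic threshold, and the top scores at 0.8% per 1000 barcodes were removed instead (57 and 56). Clustering used 2000 variable genes without the members, 30 components, 20 neighbours and Leiden (leidenalg 0.10.2, resolution 0.8). Numeric naming thresholds were set after the data had been seen. UMIs were summed per class and library. Share intervals are Clopper-Pearson and ratio intervals conditional binomial. The code was tested on simulated data.

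Named are the 8 highest and 4 lowest members, 3 at each end per class, the 8 with the largest class fold, all copies, Fau, and 2 at each end of each list; some of these are not reported here. Other genes, such as Tpt1, Eef1a1, Ncl, Myc and the sequence-sharing rows, were picked with their values already seen. The members and lists were chosen with earlier results of these data known. Gene positions are from GENCODE M21. Alternatives are given in the closing section.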

Additional observations from a re-analysis of the deposited data

Results flagged for a closer look

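Some results had opposite directions in different classes or clusters, and these differences between them were not tested. The ribosomal share in cluster 15 of the T or NK lymphocyte-like class had a ratio, day 28 over day 0, of 0.794, against ratios above 1 in all 10 clusters with at least 50 cells in each library. Of the 84 members at 50 CPM, 28 were beyond counting error higher within the ribosomal sum in at least 1 class and lower in another, beside 21.4% of all 3059 genes at that level in at least 2 classes. Members have more UMIs than most genes, so this count and share are not like for like. Among the 28, those whose highest and lowest class ratios were at least 1.5 times apart were Rps27l, with 1.93 in T or NK lymphocyte-like and 0.837 in macrophage or monocyte-like cells, and Rps27rt, with 1.54 in erythroid-like and 0.936 in B lymphocyte-like cells. The summed mitochondrial ribosome list had ratios of 1.15 in B lymphocyte-like and 0.871 in stem or early progenitor-like cells.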

How the results depend on the processing

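Each class or library share ratio, day 28 over day 0, was recomputed under the alternatives, and of 69 such values 66 stayed above 1 and 3 fell below it. The ratio over all cells could not change with members among the clustering genes or at resolution 0.4, because the same cells are summed. Those values are no check. With 1 library per group no replicate could be left out, and no paired analysis was possible because each group has a single library. With members among the clustering genes (6 of 2000), T or NK lymphocyte-like cells gave 0.992, conventional dendritic cell-like 1.09 and granulocyte or monocyte precursor-like cells 1.14. At resolution 0.4, precursor-like cells gave 1.14 and stem or early progenitor-like cells 1.16. With the mean of per-cell shares, all cells gave 0.981, B lymphocyte-like 1.05, conventional dendritic cell-like 1.11, erythroid-like 1.40, precursor-like 1.14, macrophage or monocyte-like 1.26, plasmacytoid dendritic cell-like 1.17 and T or NK lymphocyte-like cells 1.03. In cells of 4175 to 10000 UMIs (1093 and 1026 cells), all cells gave 1.03, B lymphocyte-like 1.06, conventional dendritic cell-like 1.11, macrophage or monocyte-like 1.32, plasmacytoid dendritic cell-like 1.16 and T or NK lymphocyte-like cells 1.09. With at most 5% mitochondrial UMIs, B lymphocyte-like cells gave 1.09, conventional dendritic cell-like 1.09, macrophage or monocyte-like 1.23 and T or NK lymphocyte-like cells 0.990. Without doublet removal, all cells gave 1.07, B lymphocyte-like 1.099, erythroid-like 1.254, precursor-like 1.13, macrophage or monocyte-like 1.19, plasmacytoid dendritic cell-like 1.104 (over 2 clusters, of 138 and 133 and of 80 and 163 cells, the second led by Cd7) and stem or early progenitor-like cells 1.16. Without haemoglobin, immunoglobulin and mitochondrial UMIs, all cells gave 1.06, erythroid-like 1.17, precursor-like 1.14 and stem or early progenitor-like cells 1.18. With pseudogene and sequence-sharing rows, added after seeing the data, all cells gave 1.06, erythroid-like 1.26, precursor-like 1.14 and macrophage or monocyte-like cells 1.22. T or NK lymphocyte-like cells without cluster 15 gave 1.07. No value was had for macrophage or monocyte-like cells at resolution 0.4, erythroid-like and precursor-like cells in the matched range and conventional dendritic cell-like cells without doublet removal, because no such class of 50 cells was formed. The cause of these shifts was not tested.

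Counts of pairs of a class and a member past 1.5-fold were 17 higher and 13 lower within the sum, and 22 lower with no filter on level. In CPM they were 50 higher and 12 lower, 89 higher when CPM was taken over UMIs of no member, and 20 lower with no filter. Shares over all genes are given by class above for the CPM and within-sum counts with the filter. None was computed for UMIs of no member or without the filter. Leaving members out of the total raises every member's ratio where the ribosomal share was higher, so the 89 are not read as a result. Summed with the row that shares their sequence, Rpl29 went from 2.22 to 1.40, Rpl35 from 0.339 to 0.351, Rps12 from 1.76 to 1.81 and Rps27 from 0.515 to 0.548 over all cells. Reads from the stretches these rows share cannot be told apart, and how many reads came from them was not measured. Rpl39l and Rpl10l, with 0 to 5 UMIs per library, are below what this depth can compare.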
